A study of Mus musculus with 24 samples.

Results

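Cytosines left unconverted by bisulfite were compared between mtDNA of mouse embryonic stem cells (ESCs) and mtDNA of mouse brain. The comparison used 5 of the 24 libraries of the series, all treated with bisulfite for 60 min: ESC preparations 1, 2 and 3 (E1_60, E2_60 and E3_60) and brain preparations 1 and 2 (B1_60 and B2_60). Its members were the cytosines read at least 10 times in every one of these libraries, which were 1151 of the 3890 cytosines listed for the L strand and 1756 of the 1939 listed for the H strand. When B2_60, the shallowest library, was set aside, 1932 L-strand and 1835 H-strand cytosines met the same condition.

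The ESCs were the wild-type line E14, grown on irradiated STO mouse fibroblasts in a medium with LIF and inhibitors of GSK3 and MEK, and no strain is given for them. The brain tissue came from wild-type C57BL/6J mice. For liver, which is used below only for comparison, the paper names wild-type C57BL/6J and ICR mice. It does not say which of these gave the sequenced liver preparations. The labels give no deletion and no experimental treatment for either group. The age, sex and number of the mice, and whether animals were pooled, are not given in the sources used here. The ESC group is a single line, and mtDNA of the STO feeder cells, also a mouse line, cannot be told apart from ESC mtDNA in these values. In both groups mitochondria were purified with a nuclease step, mtDNA was linearised with BglII, and libraries were made by post-bisulfite adaptor tagging, in which random-primed synthesis adds the adaptors to DNA that has already been converted. The per-cytosine values used here cover only mtDNA, so no marker gene of ESCs or of brain was measured and the labels could not be checked in that way.

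5-methylcytosine (5mC) is the main modified base of mammalian nuclear DNA, where it is found mostly at CG dinucleotides and is tied to gene silencing. Bisulfite turns unmodified cytosine into uracil, which is then read as thymine, and leaves 5mC as cytosine, so the share of reads that still show cytosine, the unconversion rate, is an upper bound on methylation that also counts failed conversion. For the L strand the paper raises a further possible source, reads copied during library synthesis from H-strand fragments that hold no cytosine. That source was not tested here. mtDNA is a small circular genome whose H strand is rich in guanine and whose L strand is rich in cytosine. It codes for subunits of respiratory complexes I, III, IV and V and for the rRNAs and tRNAs that translate them, and its control region holds the origin of H-strand replication and the promoters. The question of the comparison was whether a pluripotent line and a largely post-mitotic tissue differ in unconverted cytosines at any gene or sequence context. Synthetic mtDNA (S1_60), amplified by PCR and therefore free of 5mC, was treated for the same 60 min and served as the background, and liver preparations 1 and 2 (L1_60 and L2_60) stood beside it as another tissue.

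L-strand rates differed far more between stretches of the genome than between ESCs and brain. A pair of L-strand stretches of 60 bases shows this. They were taken as the window of each gene with the most shared cytosines, in ND6, a subunit of complex I, and in COX1, the catalytic subunit of complex IV. Sequences are from the RefSeq GRCm38 (mm10) genome, written 5′ to 3′, with the shared cytosines in capitals.
ND6, chrM:13650-13709: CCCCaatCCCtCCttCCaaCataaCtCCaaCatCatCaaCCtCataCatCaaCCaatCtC
COX1, chrM:5907-5966: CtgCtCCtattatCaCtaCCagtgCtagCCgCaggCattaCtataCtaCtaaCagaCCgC
The ND6 stretch holds 27 shared cytosines and 0 guanines, and its mean unconversion rate was 99.8, 99.7 and 99.6% in ESC preparations 1, 2 and 3 and 99.9 and 99.7% in brain preparations 1 and 2. The COX1 stretch holds 20 shared cytosines and 9 guanines, and its mean was 0.25, 0.06 and 0.73% in ESCs and 0.085 and 0.61% in brain. In both stretches the groups overlapped, and synthetic mtDNA gave 99.7% and 0.220%.

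The libraries held between 302234 (B2_60) and 1387432 (B1_60) cytosine calls, counted as reads summed over listed cytosines of both strands. At the shared L-strand cytosines the median coverage was 83, 78 and 89 reads in ESC preparations 1, 2 and 3, 136 in B1_60 and 26 in B2_60. At the shared H-strand cytosines it was 244, 242, 283.5, 397.5 and 95 reads in the same order. No pair of the 5 libraries had identical coverage. B2_60 stood apart by its depth and, on the H strand, by its rate, so the strand, CG and CH means and some of the gene results are also given without it.

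Over all shared L-strand cytosines the mean unconversion rate was 39.0, 39.9 and 40.0% in ESC preparations 1, 2 and 3, and 39.4 and 41.5% in brain preparations 1 and 2. B1_60 lay inside the ESC range and B2_60 above it. The means of the groups were 39.6% ± 0.545 (SD, n = 3) in ESCs and 40.5% ± 1.51 (SD, n = 2) in brain. The difference, brain minus ESC, was 0.867 percentage points with a 95% interval of -1.97 to 3.71, taken from the pooled SD of the 5 preparations (3 residual degrees of freedom), and an exact permutation test over the preparations, two-sided, gave p = 0.5. Preparations of 3 and 2 allow no p below 0.1. Without B2_60, over 1932 cytosines, the ESC means were 31.5, 32.7 and 32.6% and B1_60 was at 32.3%, a difference of 0.0676 percentage points. The level itself moved with the choice of sites, because the 781 cytosines that only B2_60 read fewer than 10 times were at 20.5 to 22.1% in the other libraries. S1_60 stood at 39.4% over the 1151 cytosines, inside the ESC range.

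The H strand was converted almost fully in both groups. Its mean rate over 1756 cytosines was 0.453, 0.415 and 0.640% in ESC preparations 1, 2 and 3, and 0.454 and 0.788% in brain preparations 1 and 2. ESC preparation 3 and brain preparation 2 were the high libraries, and the other 3 lay within a narrow range of one another. The means were 0.503% ± 0.1204 (SD, n = 3) in ESCs and 0.621% ± 0.236 (SD, n = 2) in brain, a difference of 0.118 percentage points with a 95% interval of -0.370 to 0.606 (exact permutation test, two-sided, p = 0.5). Without B2_60 the difference turned to -0.0288 percentage points, with B1_60 at 0.465% beside ESC means of 0.438, 0.4003 and 0.643%. Synthetic mtDNA was at 0.479%, and liver at 0.642 and 0.552%.

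**Figure D1:**
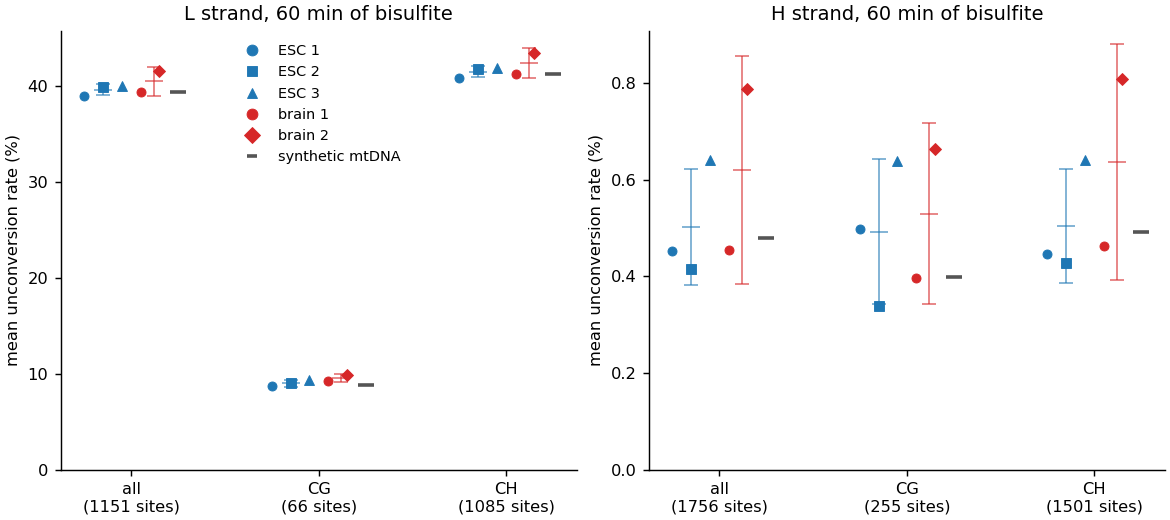
Mean unconversion rate (%) of each library over the shared cytosines of the L strand (left) and the H strand (right), for all, CG and CH cytosines. Symbols are single preparations, horizontal ticks with bars are the group means ± SD (ESC n = 3, brain n = 2) and grey bars are synthetic mtDNA; on the H strand ESC 3 and brain 2 lie above the other 3 preparations in every context.

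CG cytosines, the context in which nuclear DNA is methylated, had lower means than CH cytosines on both strands and in every library, except on the H strand of ESC preparation 1. On the L strand the 66 shared CG cytosines had means of 8.67, 8.97 and 9.33% in ESCs and 9.22 and 9.83% in brain, against 40.8, 41.7 and 41.9% in ESCs and 41.2 and 43.5% in brain at the 1085 CH cytosines (H is A, C or T). The low L-strand CG level was shared by synthetic mtDNA, at 8.78% for CG and 41.3% for CH. The L-strand difference was 0.534 percentage points at CG (95% interval -0.542 to 1.61, exact permutation p = 0.3) and 0.888 at CH (-2.06 to 3.84, exact permutation p = 0.5). Without B2_60 the CG difference was 0.461 percentage points over 115 cytosines, with B1_60 at 8.02% above ESC means of 7.27, 7.67 and 7.73%, and 1 against 3 preparations allow no p below 0.25.

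The 255 shared CG cytosines of the H strand were at 0.498, 0.339 and 0.639% in ESCs and 0.397 and 0.663% in brain, a difference of 0.0378 percentage points (95% interval -0.438 to 0.514, exact permutation p = 0.7). The 1501 CH cytosines were at 0.446, 0.428 and 0.640% in ESCs and 0.463 and 0.809% in brain, a difference of 0.131 percentage points (-0.364 to 0.627, exact permutation p = 0.5). Without B2_60 both turned below 0, to -0.0831 percentage points at CG and -0.0197 at CH. Within CH, the H-strand CHG cytosines were the highest class in every library, with 0.634, 0.568 and 0.827% in ESCs, 0.612 and 0.985% in brain and 0.664% in synthetic mtDNA over 344 cytosines. The 1157 CHH cytosines were at 0.390, 0.387 and 0.585% in ESCs and 0.419 and 0.756% in brain.

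The L strand was also split by the rate in synthetic mtDNA, which neither group enters, into cytosines with low, intermediate and high background rates. At the 577 cytosines under 5% in S1_60, ESC means were 0.564, 0.657 and 0.910% and brain means 0.507 and 1.36%, a difference of 0.223 percentage points (95% interval -0.874 to 1.32, exact permutation p = 0.7). At the 376 cytosines at 90% or more in S1_60, ESC means were 97.7, 98.7 and 98.4% and brain means 98.2 and 98.9%, a difference of 0.290 percentage points (-1.12 to 1.70, exact permutation p = 0.6). The 198 cytosines between these bounds carried the widest spread, with 39.4, 42.4 and 42.9% in ESCs and 41.1 and 49.8% in brain. Their difference of 3.84 percentage points had a 95% interval of -7.37 to 15.1 (exact permutation p = 0.4), and B1_60 again lay inside the ESC range.

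The same L-strand cytosines were unconverted in both groups. There were 356 at 90% or more in all 3 ESC preparations and 378 in both brain preparations, and 351 belonged to both lists, 98.6% of the ESC list and 92.9% of the brain list. Of these 351, 344 were at 90% or more in synthetic mtDNA as well. Across the 1151 cytosines the mean rates of ESCs and brain had a Pearson r of 0.996 and a Spearman rho of 0.897, as a description over sites that share libraries, reads and base composition. The sequence around them differed in guanine in the same way in both groups. In a window of 31 bases, L-strand cytosines at 90% or more had a median of 1 guanine whether the level was taken from ESCs (373 cytosines) or brain (400), and those under 5% had a median of 5 (583 and 567 cytosines). Windows without any guanine made up 33.0% of the high class in ESCs, 33.2% in brain and 35.6% in synthetic mtDNA, and under 0.2% of the low class in each.

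Genes were then compared over the shared cytosines that lie in them, with both strands of a gene kept apart and at least 3 such cytosines required, which of 38 annotated left 21 genes or regions for the L strand and 33 for the H strand. Reads summed over these cytosines were tested with edgeR's quasi-likelihood test and Benjamini-Hochberg adjustment. It called 0 of 21 L-strand genes (0%; smallest adjusted p = 0.777) and 0 of 33 H-strand genes (0%; smallest adjusted p = 0.993), and 0 had an unadjusted p under 0.05 on either strand. limma on the empirical logit and edgeR with a negative binomial dispersion also called 0, with 2 and 0 L-strand genes and 1 and 1 H-strand genes at an unadjusted p under 0.05. Fisher's exact test on reads summed within each group, which takes no account of the spread between preparations, called 15 L-strand and 7 H-strand genes. Both brain preparations lay above every ESC preparation in 1 L-strand gene (4.76%), COX2, and below in 1 (4.76%), TrnY, and above in 6 H-strand genes (18.2%), ND2, COX1, ND4, TrnN, TrnY and TrnL2, and below in 0 (0%). Among the 16 larger genes and regions (protein genes, rRNA genes and control region) on the H strand, B2_60 was the highest of the 5 libraries in 11, and B1_60 was above the ESC mean in 6. Without B2_60 the sign of brain minus ESC turned in 5 of these 16 on the L strand (ND1, COX1, ATP8, mt-Rnr1 and the control region) and in 6 on the H strand (ND1, ND5, CYTB, COX3, ATP6 and mt-Rnr1). L-strand gene levels also moved with the choice of sites. Over the cytosines covered without B2_60, ESCs were at 3.39 to 4.42% in mt-Rnr1 and 27.1 to 28.1% in ND1. By the same choice they were at 35.2 to 37.9% in CYTB and 7.49 to 10.3% in the control region. B1_60 was at 3.79, 26.8, 36.9 and 9.05% in the same order. ND6 hardly moved, at 99.3 to 99.8% in these libraries.

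**Figure D2:**
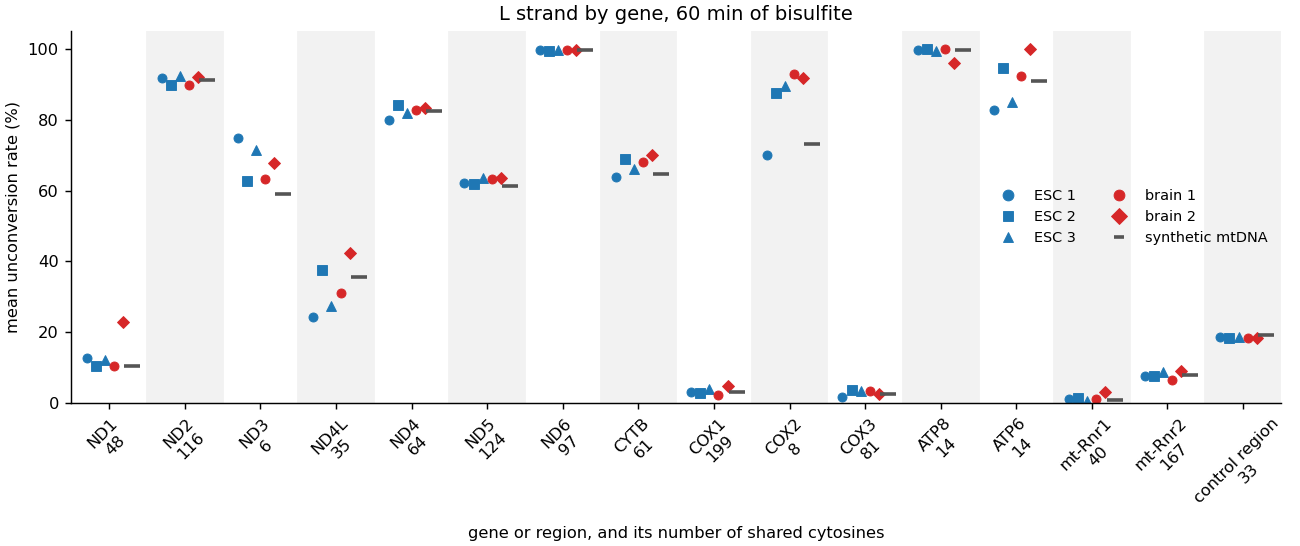
Mean unconversion rate (%) of each library over the shared L-strand cytosines of each gene or region; the number under a name is its count of shared cytosines, symbols are single preparations and grey bars are synthetic mtDNA. Levels over these cytosines run from about 1% in mt-Rnr1 (3.19% in brain 2) to above 95% in ND6 and ATP8. The preparations of ESC and brain follow the same profile, but the levels of several genes differ over the cytosines covered without brain 2.

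Complex I takes electrons from NADH, and its mitochondrially coded subunits ND1 to ND6 and ND4L form the membrane arm. On the L strand their rates over the shared cytosines covered nearly the whole scale. ND6 (chrM:13552-14070, 97 shared cytosines of 146) was unconverted at 99.6, 99.3 and 99.6% in ESCs and 99.8 and 99.6% in brain, and its difference of 0.178 percentage points had the narrowest 95% interval of the 21 L-strand genes (-0.266 to 0.622). ND2 (chrM:3914-4951, 116 cytosines) stood at 91.7, 89.8 and 92.3% in ESCs and 89.9 and 92.2% in brain. ND4 (chrM:10167-11544, 64 cytosines) was at 80.0, 84.1 and 81.9% in ESCs and 82.9 and 83.5% in brain. In all 3 genes the groups overlapped, and synthetic mtDNA lay inside the native range.

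ND5 (chrM:11742-13565, 124 cytosines) was at 62.3, 61.8 and 63.5% in ESCs and 63.2 and 63.5% in brain, an overlap with a difference of 0.822 percentage points (-1.26 to 2.90). With its reads summed, ND5 had ESC rates of 69.3, 85.5 and 74.1% and brain rates of 86.0 and 86.8% (edgeR adjusted p = 0.777), and when ESC preparation 2 was left out it was called higher in brain (edgeR adjusted p = 0.00528). By summed reads ESC preparation 2 was the ESC library nearest to brain, whereas by the mean over cytosines it was the farthest. ND1 (chrM:2751-3707, 48 cytosines) was at 12.6, 10.6 and 12.04% in ESCs, 10.4% in B1_60 and 22.8% in B2_60, so the brain preparations lay on either side of the ESCs, and its difference of 4.85 points became -0.968 over 74 cytosines without B2_60. ND4L (chrM:9877-10173, 35 cytosines) spread from 24.2 to 37.7% among ESCs and was at 31.1 and 42.4% in brain, and ND3 (chrM:9459-9806) kept only 6 of 77 cytosines, at 74.9, 62.8 and 71.5% in ESCs and 63.3 and 67.8% in brain.

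H-strand rates of the complex I genes were low in every library. ND2 (83 cytosines) was at 0.363, 0.354 and 0.459% in ESCs and 0.481 and 0.670% in brain, without overlap, a difference of 0.183 percentage points (95% interval -0.0801 to 0.447, edgeR adjusted p = 0.993). ND4 (135 cytosines) was at 0.244, 0.219 and 0.244% in ESCs and 0.2496 and 0.290% in brain, also without overlap, and its difference of 0.0338 percentage points had the narrowest interval of the 33 genes (-0.0245 to 0.0922). ND2 in synthetic mtDNA was at 0.440%, inside the ESC range, and ND4 at 0.2504%, between the brain preparations. Without B2_60 the differences were 0.0888 points in ND2 and 0.0138 in ND4. ND5 (182 cytosines), ND1 (111), ND4L (33) and ND6 (31) overlapped between the groups, with differences of 0.00998, 0.1404, -0.0197 and 0.0457 percentage points in that order. ND3 (38 cytosines) was at 1.19, 0.642 and 1.27% in ESCs and 0.534 and 1.28% in brain, which made it the only complex I gene above 1% in any library.

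Complex III passes electrons to cytochrome c, and CYTB (chrM:14145-15288) is its only subunit coded in mtDNA. Its 61 shared L-strand cytosines were at 63.9, 69.0 and 66.0% in ESCs and 68.1 and 70.2% in brain, a difference of 2.85 percentage points (-3.75 to 9.46) in which B1_60 lay below ESC preparation 2. Of these cytosines, 12 (19.7%) were higher in both brain preparations than in all ESC preparations and 0 were lower, beside 5.47% higher and 3.82% lower over all L-strand cytosines. By the same count COX2 had 6 of 8 L-strand cytosines higher and 0 lower, and COX3 had 1 of 81 higher and 9 (11.1%) lower. Without B2_60 the CYTB difference was 0.3997 percentage points over 133 cytosines. Its 139 shared H-strand cytosines were at 0.417, 0.299 and 0.521% in ESCs and 0.315 and 0.604% in brain.

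Complex IV, cytochrome c oxidase, reduces oxygen, and COX1, COX2 and COX3 make up its core. The L strand of COX1 (chrM:5328-6872, 199 of 367 cytosines) was among the best converted, at 3.07, 2.79 and 3.90% in ESCs and 2.23 and 4.79% in brain, and its difference of 0.255 points became -0.817 without B2_60. COX3 (chrM:8607-9390, 81 cytosines) was at 1.60, 3.81 and 3.34% in ESCs and 3.45 and 2.50% in brain. COX2 (chrM:7013-7696) was the L-strand gene in which brain lay above all ESCs, at 70.1, 87.5 and 89.7% in ESCs and 93.0 and 91.8% in brain. Its 9.97 points rested on 8 of 173 cytosines, with a 95% interval of -15.5 to 35.4 (edgeR adjusted p = 0.783), and synthetic mtDNA at 73.1% and liver at 77.8 and 70.8% lay near the lowest ESC preparation. Without B2_60, 31 COX2 cytosines gave a difference of 4.50 points.

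COX1 was the H-strand gene with the smallest unadjusted p (edgeR, 0.066, adjusted p = 0.993). Its 238 shared cytosines were at 0.336, 0.315 and 0.364% in ESCs, 0.418% in B1_60 and 0.962% in B2_60. The groups did not overlap, with B1_60 just above the highest ESC preparation and B2_60 far above all. The difference was 0.352 percentage points with a 95% interval of -0.295 to 0.9996. Without B2_60 it was 0.134 points over 247 cytosines. S1_60 was at 0.416% and liver at 0.611 and 0.456%, so the background stood at the level of B1_60. At 33 of the 238 cytosines (13.9%) both brain preparations were above all ESCs and at 6 (2.52%) below, beside 7.46% and 4.10% over all H-strand cytosines. This was not particular to COX1, since the H-strand share above was 14.3% in COX2 and 13.3% in ND2. Larger shares lay below in ND4L, at 24.2%, and in ND3, at 23.7%. COX2 (91 cytosines) and COX3 overlapped between the groups, at 0.422 to 0.764% and 0.369 to 0.814% in ESCs and 0.553 to 0.767% and 0.496 to 0.906% in brain.

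**Figure D3:**
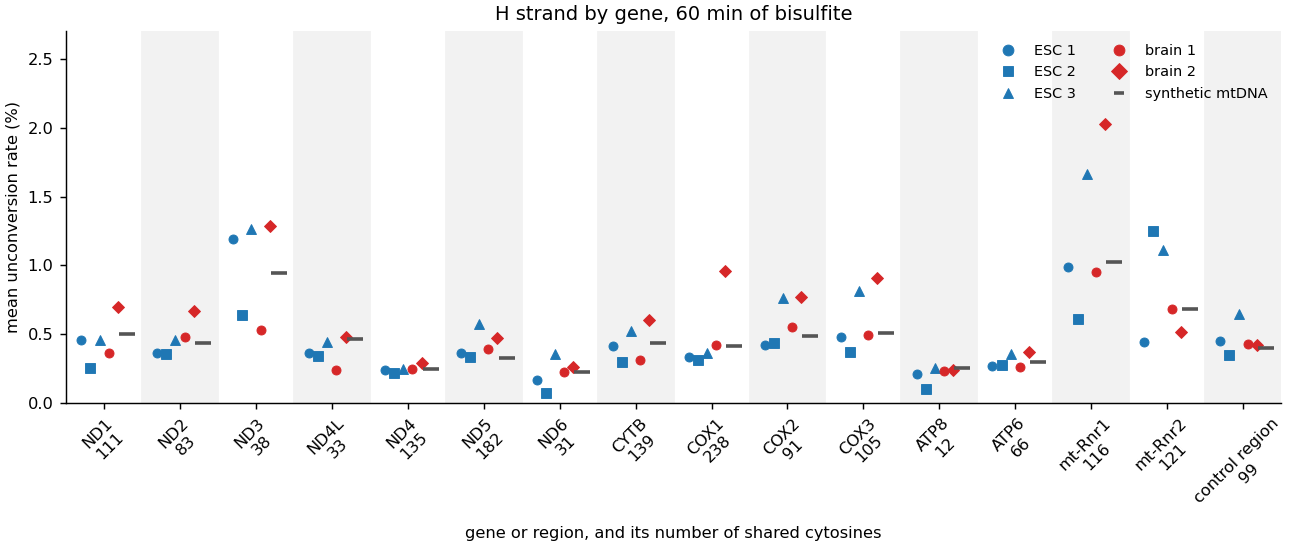
Mean unconversion rate (%) of each library over the shared H-strand cytosines of each gene or region, on a scale up to 2.7%; the number under a name is its count of shared cytosines, symbols are single preparations and grey bars are synthetic mtDNA. In COX1 brain 2 lies at 0.962% while the other ESC and brain preparations lie between 0.315 and 0.418%.

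Complex V is the ATP synthase, and ATP6 and ATP8 belong to its membrane part. ATP8 (chrM:7766-7969, 14 L-strand cytosines) was at 99.7, 100 and 99.5% in ESCs, 99.9% in B1_60 and 95.9% in B2_60. ATP6 (chrM:7927-8607, which overlaps ATP8, 14 cytosines of 179) was at 82.8, 94.5 and 85.1% in ESCs and 92.3 and 100% in brain, with B2_60 at a median of 16 reads per cytosine. The H strand of ATP8 held 12 shared cytosines at 0.208, 0.1 and 0.258% in ESCs and 0.233 and 0.242% in brain, and ATP6 held 66 at 0.273, 0.274 and 0.358% in ESCs and 0.262 and 0.371% in brain. Both overlapped on both strands.

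The rRNA genes were well converted on the L strand. mt-Rnr1, the small-subunit rRNA (chrM:70-1024, 40 cytosines), was at 1.24, 1.35 and 0.688% in ESCs and 1.28 and 3.19% in brain, a difference of 1.15 points that became -0.0330 without B2_60. mt-Rnr2, the large-subunit rRNA (chrM:1094-2675, 167 cytosines), was at 7.67, 7.74 and 8.65% in ESCs and 6.43 and 8.99% in brain. Among the larger genes an rRNA gene had the highest H-strand rate in every one of the 5 libraries but ESC preparation 1. mt-Rnr1 was at 0.985, 0.611 and 1.66% in ESCs and 0.948 and 2.03% in brain (difference 0.4 points, -0.142 without B2_60), and mt-Rnr2 at 0.445, 1.25 and 1.11% in ESCs and 0.683 and 0.517% in brain. They were also the most thinly covered of the larger genes on that strand, with a median of 39 and 33 reads per cytosine in B2_60. The control region (chrM:15423-16299) was on its L strand at 18.7, 18.3 and 18.6% in ESCs and 18.3 and 18.4% in brain over 33 of 219 cytosines, a difference of -0.195 points (-0.648 to 0.257), with synthetic mtDNA just above all of them at 19.2%. This sign did not hold: the difference was 0.0532 points at a coverage minimum of 20, 0.166 at 30 and 0.578 over 99 cytosines without B2_60. Its 99 shared H-strand cytosines were at 0.454, 0.353 and 0.644% in ESCs and 0.427 and 0.425% in brain, inside the ESC range, and its 14 H-strand CG cytosines at 0.407, 0.307 and 0.629% in ESCs and 0.479 and 0.657% in brain.

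tRNA genes, each with few cytosines, scattered more. On the L strand 5 of 22 tRNA genes kept enough shared cytosines (7 to 10 each), at 0 to 1.98% in any library, with brain minus ESC between -1.54 and 0.0981 points. For the H strand 17 were compared (5 to 13 cytosines each), at 0 to 4.19%, with differences between -1.29 and 1.81 points and a median of 0.192. Brain was higher on average in 12 of the 17, and B2_60 was the highest library in the same number. The test called none. CG cytosines taken by gene were compared in 15 larger genes and regions of the H strand with at least 3 of them, at 0 to 2.5%. The groups did not overlap in 1, ND4L, named after its values were seen, with 0.35, 0.333 and 0.317% in ESCs and 0.233 and 0.25% in brain over 6 cytosines.

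Single cytosines were tested with the same edgeR quasi-likelihood model where at least 1 unconverted and 1 converted read was seen. After Benjamini-Hochberg adjustment it called 0 of 975 L-strand cytosines (0%; smallest adjusted p = 0.919) and 0 of 1615 H-strand cytosines (0%; smallest adjusted p = 0.915). At an unadjusted p under 0.05 there were 17 and 51. limma called 0 on both strands, with 19 and 70 at an unadjusted p under 0.05. Fisher's exact test on summed reads called 0, with 47 and 69, and edgeR with a negative binomial dispersion called 0, with 8 and 49. Both brain preparations lay above all ESC preparations at 63 L-strand cytosines (5.47%) and below at 44 (3.82%), and above at 131 H-strand cytosines (7.46%) and below at 72 (4.10%). CG cytosines were near these shares, with 3 of 66 above and 2 below on the L strand, and 22 of 255 above (8.63%) and 10 below (3.92%) on the H strand.

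Site by site, brain minus ESC had a median of 0 percentage points on both strands. On the L strand the central 95% of sites ran from -4.78 to 11.4 points, and 1018 of 1151 (88.4%) differed by at most 5 points. For the H strand it ran from -1.23 to 2.10 points, and 1545 of 1756 (88.0%) differed by at most 1 point. The spread followed depth: below the median of 174 brain reads the SD of the L-strand differences was 5.56 points, and at or above it 2.17. For the H strand the same split at 502 brain reads gave 1.02 and 0.448 points.

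**Figure D4:**
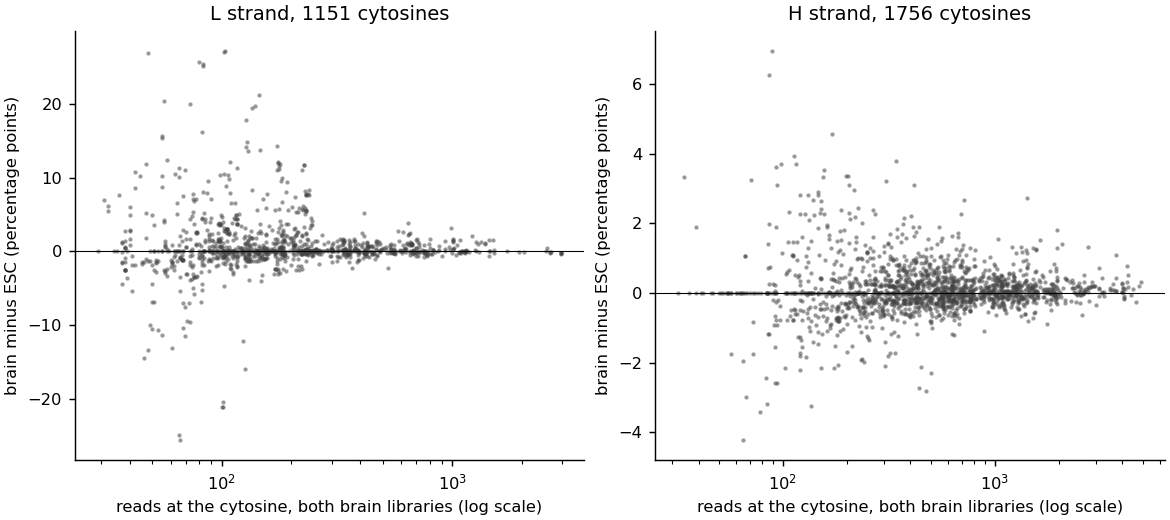
Brain minus ESC difference (percentage points) of each shared cytosine against the reads of both brain libraries at it (log scale), for the L strand (1151 cytosines, left) and the H strand (1756, right). Each point is a cytosine; the scatter narrows around 0 as reads increase, from an SD of 5.56 to 2.17 points on the L strand and from 1.02 to 0.448 on the H strand across the median depth.

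The cytosines with the smallest p on each strand are shown because they are where a difference would be looked for first, although none was called. They are named by strand and chrM position. The capital marks the cytosine, and each sequence is 5′ to 3′ on its own strand.
L1648, chrM:1633-1663: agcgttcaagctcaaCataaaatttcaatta
L1645, chrM:1630-1660: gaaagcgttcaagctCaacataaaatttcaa
L1692, chrM:1677-1707: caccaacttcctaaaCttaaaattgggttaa
L14852, chrM:14837-14867: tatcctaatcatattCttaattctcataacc
L1687, chrM:1672-1702: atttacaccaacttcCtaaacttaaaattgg
H6720, chrM:6705-6735: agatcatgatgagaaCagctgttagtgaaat
H11173, chrM:11158-11188: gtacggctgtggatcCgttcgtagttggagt
H6348, chrM:6333-6363: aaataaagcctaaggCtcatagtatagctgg
H6620, chrM:6605-6635: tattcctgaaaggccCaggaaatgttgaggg
H6390, chrM:6375-6405: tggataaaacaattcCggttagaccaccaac
Of the 5 on the L strand, 4 lie close together in mt-Rnr2 and can share reads, and 4 of the 5 on the H strand lie in COX1. mt-Rnr2 held 167 of the 1151 shared L-strand cytosines, and COX1 held 238 of the 1756 on the H strand. Whether either gene is over-represented among the smallest p was not tested.

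In mt-Rnr2 the cytosine L1648 was unconverted at 82.1, 95.5 and 80.6% in ESCs and 60.8 and 60.0% in brain, a difference of -25.7 points (edgeR adjusted p = 0.919). Both brain values lay below all ESC values, on 28, 22 and 31 ESC reads and 51 and 15 brain reads. Synthetic mtDNA was at 81.6%, with the ESCs, and the liver preparations at 71.4 and 48.4%. Its neighbour L1645 differed by -24.9 points, and L1692 and L1687 by -21.1 each, in the same direction. After 40 min of bisulfite L1648 was at 71.2 and 81.2% in ESCs and 68.9% in brain. The exception on the strand, L14852 in CYTB, was at 16.3, 29.4 and 16.2% in ESCs and 31.9 and 37.9% in brain, and after 40 min brain was at 11.1% beside 31.6 and 10.3% in ESCs.

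The cytosine H6720 in COX1 was at 0% in all 3 ESC preparations, on 182, 238 and 192 reads, and at 1.6 and 1.9% in brain on 374 and 52 reads (edgeR adjusted p = 0.915). The upper limit that 0 unconverted reads allow, 3 reads of the coverage, was 1.65, 1.26 and 1.56% in these ESC libraries, near the level of B1_60. Liver was at 1 and 1.7% and synthetic mtDNA at 0.4%, and after 40 min ESCs were at 1 and 0.6% and brain at 0.6%. H6348, also in COX1, was at 0% in ESCs, which allows up to 0.716 to 0.898%, and at 0.3 and 5.9% in brain, with B2_60 on 85 reads. H6620 and H6390 had differences of 1.15 and 1.10 points. The only CG cytosines among the 10 were H11173 in ND4, at 0, 0 and 0.1% in ESCs and 0.7 and 0.3% in brain, and H6390. At 40 min the brain value was below the mean of the ESC values at every one of the 10 cytosines, with differences between -9.85 and -0.05 points.

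A further set of H-strand cytosines stood out in ESCs and brain alike and was chosen after the values were seen. There were 22 cytosines at 2% or more in all ESC preparations and 24 in both brain preparations, and 12 were in both lists (54.5% of the ESC list, 50% of the brain list). All 12 were also at 2% or more in synthetic mtDNA, and none was a CG. Of the 12, 10 stood before AG or TG, although these triplets made up 292 of the 1756 shared cytosines. Here the 6 with the highest ESC mean are shown, the cytosine and the next 2 bases in capitals, since in ESCs the mean rate on this strand was highest there. The ranking by brain mean differs.
H1766, mt-Rnr2, chrM:1751-1781: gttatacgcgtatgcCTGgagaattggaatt
H5050, TrnA, chrM:5035-5065: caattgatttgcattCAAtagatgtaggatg
H666, mt-Rnr1, chrM:651-681: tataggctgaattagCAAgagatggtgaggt
H6249, COX1, chrM:6234-6264: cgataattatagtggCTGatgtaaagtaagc
H3286, ND1, chrM:3271-3301: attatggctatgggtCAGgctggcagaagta
H238, mt-Rnr1, chrM:223-253: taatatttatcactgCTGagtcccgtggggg
The cytosine H1766 was at 10.1, 7 and 14.3% in ESCs, 10.8 and 12.4% in brain and 11.1% in synthetic mtDNA. H5050 was at 11.7, 7 and 10.6% in ESCs, 12.7 and 5.7% in brain and 8.1% in synthetic mtDNA. These levels stand far above the strand mean in either group. H6249 was at 6.4, 8.4 and 5.2% in ESCs, 5.9 and 10.6% in brain and 6.8% in synthetic mtDNA. H3286, with at least 639 reads in every one of the 5 libraries, was at 7.6, 6.2 and 4.6% in ESCs, 6.3 and 8.6% in brain and 7.1% in synthetic mtDNA. H666 and H238 lay between 4.1 and 10.7% in the 5 libraries. At all 6 the groups overlapped and synthetic mtDNA lay between the lowest and the highest native library. Over all 292 CAG and CTG cytosines of the H strand, ESC means were 0.667, 0.589 and 0.856%, brain means 0.641 and 1.11%, and synthetic mtDNA 0.701%.

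Cytosines that were clear in one group and near 0 in the other were few. At 2% or more in both brain preparations and under 1% in all ESC preparations there were 0 L-strand cytosines and 2 H-strand cytosines, H768 in mt-Rnr1 and H7436 in COX2, both named after their values were seen. H768 was at 0% in ESCs on 45 to 54 reads, which allows up to 5.56 to 6.67%, and at 2.1 and 5.3% in brain on 96 and 19 reads. H7436 was at 0% in ESCs on 90 to 110 reads, which allows up to 2.73 to 3.33%, and at 2.6 and 2% in brain on 155 and 49 reads. After 40 min H7436 was at 1.3 and 1.4% in ESCs and 1.2% in brain. In the opposite direction there was 1 on each strand, L1808 in mt-Rnr2 at 2.1 to 2.8% in ESCs and H3754 in TrnI at 2.1 to 2.9%. Both were at 0% in brain, which allows up to 1.96% in B1_60 and 9.38% in B2_60 for L1808 and up to 4.48 and 18.8% for H3754. Every value above 0 at these 4 cytosines stood for 1 to 4 unconverted reads, too few to tell the groups apart at this depth.

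How small a difference the reads could show was worked out for each shared cytosine. ESC reads were summed and set at the ESC mean rate of the strand, and the smallest excess of the summed brain reads with a two-sided Fisher's exact p under 0.05 was taken. It is not the smallest difference that the edgeR test could call, which was not worked out. The excess covers counting error only, since PCR copies are not independent molecules, and takes no account of the spread between preparations. The median for the H strand was 1.30 percentage points (range 0.296 to 12.5), from a median of 784 ESC and 502 brain reads, and 3.34 points (0.691 to 40.6) when the threshold was divided by the 1756 cytosines. For the L strand, where few cytosines lie near the strand mean, it was 10.1 points (2.81 to 26.2) and 20.4 points (5.85 to 48.3), from 260 ESC and 174 brain reads. Setting each L-strand cytosine at its own ESC rate gave a median of 3.58 points where an excess could be shown, and at 317 of the 1151 none could, because the ESC rate was already too near complete unconversion. These included 92 of 97 cytosines in ND6, 14 of 14 in ATP8 and 56 of 116 in ND2. At the 584 L-strand cytosines whose summed ESC rate was under 5%, the median at their own ESC rates was 2.57 points and 6.89 after division. CG cytosines had nearly the same limit as CH cytosines on the H strand, 1.35 points against 1.30.

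The limit differed by gene. For the H strand it was smallest in ND4, with a median of 0.647 points, and in ATP8, with 0.778, and largest in mt-Rnr1, with 2.15, and mt-Rnr2, with 3.07. The control region stood at 1.31 points and COX1 at 1.201. On the L strand, with every cytosine set at the strand mean, it was smallest in mt-Rnr1, with 5.50 points, and largest in ND3, with 23.2, and ATP6, with 18.0. At each cytosine's own ESC rate, where an excess could be shown, the L-strand median was lower. It was 1.14 points in mt-Rnr1, 2.94 in COX1, 1.68 in the control region and 11.1 in ATP6. In a single library, 3 unconverted reads at the median coverage amounted to 1.06 to 1.24% of H-strand reads in ESCs, 0.755% in B1_60 and 3.16% in B2_60. The corresponding L-strand shares were 3.37 to 3.85%, 2.21% and 11.5%. For means over many cytosines the spread between preparations set the limit: the half-width of the 95% interval was 0.488 points for the H strand, 2.84 for the L strand, and a median of 0.392 points for the 16 larger genes and regions on the H strand and 4.43 on the L strand.

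The same preparations treated for 40 min (ESC preparations 1 and 2, E1_40 and E2_40, and brain preparation 1, B1_40) gave a second reading that is not independent of the first. Over cytosines read at least 10 times in all 3 libraries, H-strand means were 0.498 and 0.601% in ESCs and 0.755% in brain (1876 cytosines), and L-strand means were 31.2 and 29.8% in ESCs and 29.7% in brain (2229 cytosines). At 40 min B1_40 lay above both ESC libraries on the H strand by a mean of 0.206 points, whereas at 60 min B1_60 lay among the ESCs. For the L strand B1_40 lay below both ESC libraries, a difference of -0.828 points. Over the cytosines covered in all 8 libraries the brain minus ESC difference was 0.144 points at 40 min and 0.118 at 60 min on the H strand (1756 cytosines), and -0.151 and 0.853 points on the L strand (1148 cytosines). The 60 min values include ESC preparation 3 and brain preparation 2. With only the preparations used at 40 min, the 60 min difference was 0.0194 points on the H strand and -0.0342 on the L strand. No p below 0.333 is possible with 2 against 1.

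By gene, the H-strand difference had the same sign at both times in 9 of 16 larger genes and regions, and the L-strand difference in 6 of 16. With the same preparations at both times and the cytosines shared at 60 min, these counts were 9 and 10. ND2 on the H strand was higher in brain at both times, at 0.436 and 0.330% in ESCs and 0.786% in brain after 40 min. COX1 did not keep its direction on the H strand, with 0.634 and 0.577% in ESCs and 0.532% in brain after 40 min, so the brain preparation lay below both ESC preparations over all 249 cytosines covered at 40 min. Over the 238 cytosines shared at 60 min the 40 min difference was 0.0160 points. ND4, the remaining larger gene without overlap at 60 min, overlapped after 40 min, with 0.420 and 0.221% in ESCs and 0.347% in brain. COX2 on the L strand was at 22.6 and 17.2% in ESCs and 19.0% in brain over 34 cytosines after 40 min. These levels are not comparable with those of its 8 shared cytosines at 60 min. Over the 31 cytosines covered at 60 min without B2_60, ESCs were at 18.1, 23.2 and 23.5% and B1_60 at 26.1%. Over the cytosines shared at 60 min the 40 min difference of COX2 was 0.531 points. mt-Rnr1 had the largest H-strand gap of the 16 larger genes and regions at 40 min, with 0.522 and 1.92% in ESCs and 2.34% in brain, a difference of 1.12 points that was 0.241 over the cytosines shared at 60 min. Its ESC preparations themselves differed by more than that gap.

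**Figure D5:**
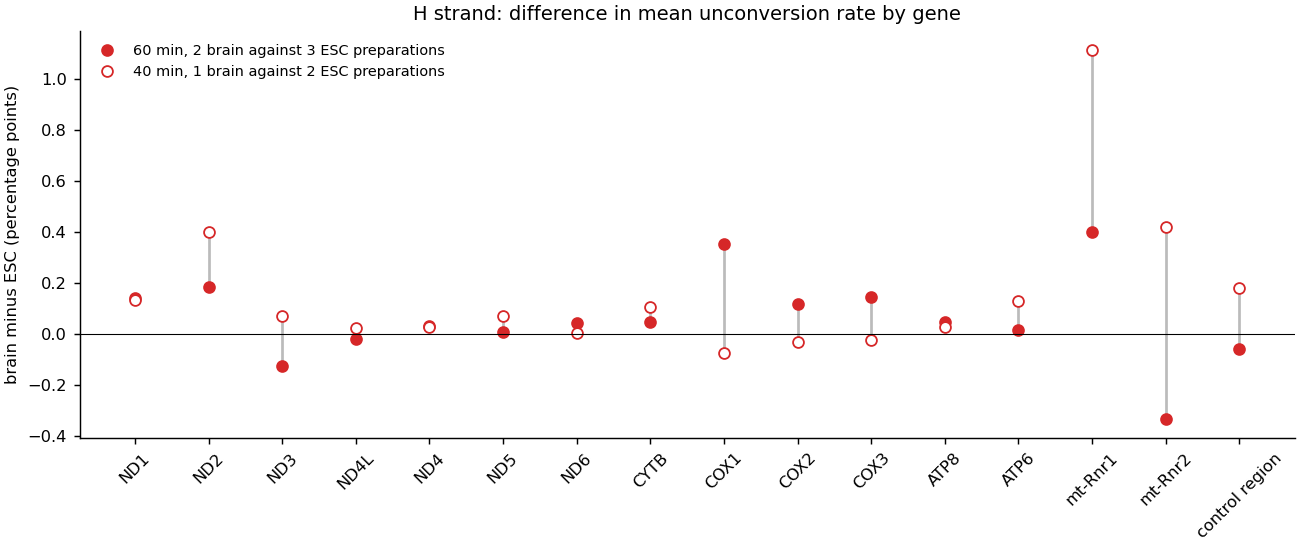
Brain minus ESC difference (percentage points) in H-strand mean unconversion rate by gene after 60 min (filled, 2 brain against 3 ESC preparations) and after 40 min (open, brain preparation 1 against ESC preparations 1 and 2), joined by a grey line; points show group means without error bars. COX1 lies at 0.352 points at 60 min and -0.0733 at 40 min, and mt-Rnr2 at -0.333 and 0.422.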

How the data were processed

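Per the labels and the study's methods, MiSeq first reads were trimmed with Trim Galore and mapped to mm10 chrM by Bismark in its PBAT mode, and Perl scripts then gave per-cytosine values. Versions for these libraries are not given in the sources used here. For each cytosine the authors deposited a percent, the share of covering reads left unconverted, given to 1 decimal, and the coverage, a count of reads without normalization or a minimum. The study set aside reads that stayed at least 90% unconverted before it averaged. The deposited percent values include L-strand sites at 90% or more in every library, so they appear to precede that step, which cannot be repeated on per-site values.

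Groups came from the labels, with replicate numbers as biological replicates. Unconverted reads were the percent times the coverage, rounded, which is inexact above a coverage of 1000 (33 L-strand and 318 H-strand shared cytosines in at least 1 library). A library's rate is the mean over cytosines with coverage of at least 10 in all 5 libraries. Means were compared by an exact permutation test over all 10 assignments, two-sided. Cytosines and genes were tested with edgeR 4.0.16 (quasi-likelihood, one coefficient per library, dispersion 0, checked for cytosines on simulated data), Benjamini-Hochberg per strand, threshold 0.05. limma 3.58.1 (offset 0.5), Fisher's exact test (R 4.3.3), other coverage minimums and left-out preparations were alternatives. Genes are from RefSeq GRCm38, whose chrM holds a cytosine at every listed position. The 86 L-strand and 74 H-strand cytosines that are in the reference only were not analysed here, nor was λDNA. For the spiked λDNA at the same bisulfite time, the paper's supplement gives a lower mean conversion in brain than in ESC samples. Its main text names only the synthetic library as less fully converted. Cytosines named singly are the 5 with the smallest p per strand, since none was called. tRNA genes are given by counts. The members and lists were chosen with earlier results of these data known.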

Additional observations from a re-analysis of the deposited data

Results flagged for a closer look

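The brain minus ESC difference of COX1 on the H strand was -0.0733 percentage points after 40 min, with the brain preparation below both ESC preparations, and 0.352 points after 60 min, with both brain preparations above all ESC preparations. The turn depended on the cytosines taken, since over the 238 cytosines shared at 60 min the 40 min difference was 0.0160 points. The preparations also differed, since B2_60, at 0.962%, has no 40 min library. Without B2_60 the 60 min difference was 0.134 points over 247 cytosines. The difference between the times was not tested, and the 40 min libraries come from preparations also used at 60 min.

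TrnY on the L strand, named after its values were seen, showed the opposite turn, with 0.523 points over 11 cytosines after 40 min (0.575 over the 10 shared at 60 min) and -1.54 points over 10 cytosines after 60 min. At 60 min ESCs were at 1.98, 1.91 and 0.970% and brain at 0.15 and 0%, while synthetic mtDNA was at 0.480%. Its 95% interval at 60 min, -2.89 to -0.195 points, was the only one by gene and strand that left out 0, and its edgeR quasi-likelihood test gave an adjusted p of 0.827. This difference between the times was not tested either.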

How the results depend on the processing

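The sign of the brain minus ESC difference held for all 3 L-strand means (all, CG and CH cytosines) under every alternative run. Leaving out each preparation in turn gave 0.0676 to 1.93 percentage points for the L strand, 0.372 to 0.842 for its CG and 0.0427 to 1.999 for its CH cytosines. The H-strand means turned without brain preparation 2, and the ranges over left-out preparations were -0.0288 to 0.285 points for the strand, -0.0831 to 0.171 for CG, which also turned without ESC preparation 2 (-0.0388), and -0.0197 to 0.304 for CH. Reads pooled over sites raised the L-strand difference to 4.07 points (exact permutation p = 0.7) and each library's own sites to 4.76, where B2_60 is averaged over fewer cytosines.

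No alternative called a single cytosine. Gene counts moved under Fisher's exact test on summed reads, which called 15 L-strand and 7 H-strand genes but leaves out the spread between preparations by construction. Over left-out preparations the L-strand gene count was 0 to 1 (ND5, without ESC preparation 2).

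The labels number preparations from 1 in each group, and the replicate block pairs 1 with 1 and 2 with 2. Deviations of same-numbered preparations had correlations of -0.202 to -0.0953 across sites, so the numbers were taken as names. With the replicate block the differences were 1.06 points (L), 0.705 (L CG), 1.08 (L CH), 0.186 (H), 0.111 (H CG) and 0.199 (H CH), and 0 cytosines and 0 genes were called, ND4 on the L strand lying at an edgeR adjusted p of 0.05002. B2_60 had a median depth of 26 reads per L-strand cytosine, which limits what it can show at single cytosines.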
